A study of Mus musculus with 4 samples.

Results

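The genes described here are 10 genes known from retinal ganglion cells, namely Pou4f1, Pou4f3, Isl1, Rbpms, Sncg, Nefl, Nefm, Gap43, Stmn2 and Thy1. They were chosen by their intensities in this study, in which ganglion cell genes had been seen to vary between replicates, so every difference between replicates below is a description and carries no test. All 10 had 1 feature (probe set) to which the platform annotation assigns a single symbol, out of 18920 genes and 22431 features measured. Retinal cells of BAC-Crx-EGFP mice on a 129Sv/Ev background, dissected at E17.5, late in gestation, were sorted by the fluorescence of a reporter. In these mice a large genomic clone places the enhanced green fluorescent protein under the regulatory sequences of Crx, a homeobox gene of photoreceptors and their precursors. The EGFP-positive fraction and the EGFP-negative fraction were each measured on 2 arrays, labelled replicate 2 and replicate 1. All 4 samples carry the transgene, and the comparison asks how expression in the reporter-positive cells differs from that in the rest of the retina. The labels do not say how many retinas were pooled, whether the replicates came from separate animals or sorts, or whether arrays of the 2 fractions with the same number share a sort, and the p-values below reflect no more than the variation among these 4 samples, some of which could be technical.

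Retinal ganglion cells are the output neurons of the retina and send their axons through the optic nerve to the brain. They are among the earliest retinal neurons to be born, and at this stage many are extending axons. The 10 genes cover their transcription factors (Pou4f1, Pou4f3, Isl1), an RNA-binding protein used as a pan-ganglion marker (Rbpms), cytoplasmic and cytoskeletal proteins (Sncg, Nefl, Nefm), growth cone proteins (Gap43, Stmn2) and a surface glycoprotein (Thy1). Several are not exclusive to ganglion cells. Isl1 is also made in bipolar and some amacrine cells, and Gap43, Stmn2 and the neurofilaments are made by many young neurons.

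The sequence just upstream of a gene's start is where much of its regulation is read. RefSeq windows of the assembly GRCm38.p6 ran from 250 bases before to 50 bases after the start. They are given for 3 of the 10 genes, Isl1, Pou4f1 and Sncg, each of which differed between replicates as described further on. They are shown 5′ to 3′ on the strand of the gene, which is the minus strand for all 3, with capitals for matches to CAGCTG or CAGATG on either strand, forms of the E-box that proneural helix-loop-helix factors bind. The windows are chr13:116309639-116309938 for Isl1, chr14:104467950-104468249 for Pou4f1 and chr14:34374620-34374919 for Sncg.
Isl1: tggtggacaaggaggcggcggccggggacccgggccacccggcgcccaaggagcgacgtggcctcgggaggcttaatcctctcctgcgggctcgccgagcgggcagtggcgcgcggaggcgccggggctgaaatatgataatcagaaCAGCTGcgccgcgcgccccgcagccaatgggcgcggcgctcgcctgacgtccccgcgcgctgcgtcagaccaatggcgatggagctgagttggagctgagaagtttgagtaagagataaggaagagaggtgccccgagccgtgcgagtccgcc
Pou4f1: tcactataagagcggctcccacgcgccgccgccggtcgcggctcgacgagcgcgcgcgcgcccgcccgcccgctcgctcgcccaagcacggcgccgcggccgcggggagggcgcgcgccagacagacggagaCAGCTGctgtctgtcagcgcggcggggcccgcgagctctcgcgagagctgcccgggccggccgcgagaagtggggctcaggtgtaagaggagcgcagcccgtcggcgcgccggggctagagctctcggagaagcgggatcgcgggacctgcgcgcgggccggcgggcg
Sncg: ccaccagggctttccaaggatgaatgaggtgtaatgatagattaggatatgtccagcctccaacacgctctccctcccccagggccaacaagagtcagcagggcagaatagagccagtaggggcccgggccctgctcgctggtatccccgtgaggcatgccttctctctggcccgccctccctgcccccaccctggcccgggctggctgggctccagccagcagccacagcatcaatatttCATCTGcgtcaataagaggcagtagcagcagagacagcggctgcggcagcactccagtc
Each window held 1 such match, and 30.6% of all 32851 promoter windows of this length held at least 1. With 3 windows searched and Pou4f3 left out, no excess over that share can be read. The match began 103 bases before the start in Isl1, 118 bases before it in Pou4f1 and 9 bases before it in Sncg. CAGCTG was found in Isl1 and Pou4f1 and in 16.3% of all windows, and CAGATG in Sncg and in 17.2% of all windows. Neither TATAAA (13.6% of all windows, both strands) nor CATTAA, a core of POU4 binding sites (8.84%), was found in the 3 windows. These motifs were chosen after the expression values were known, and a match of letters is not a binding site. No window was found for Rbpms, Nefl, Nefm, Gap43, Stmn2 or Thy1. Pou4f3, which differed little between replicates, was left out of the search. With only varying genes searched, whether the matches go with the replicate difference was not tested. G and C made up 69.0% of the Isl1 window, 78.3% of the Pou4f1 window and 61.3% of the Sncg window, against a median of 52.7% over all windows.

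Markers of photoreceptor precursors separated the fractions. Crx was higher in the EGFP-positive fraction by 3.66 ± 0.19 on the log2 scale (SE, n = 2 per fraction, limma adjusted p = 0.00596), and the photoreceptor retinoid carrier gene Rbp3 by 4.37 ± 0.19 (limma adjusted p = 0.00576). Across all features, 0.82% were called higher and 0.143% lower in EGFP-positive cells at an adjusted p under 0.05. Array medians lay between 218.4 and 222.9 on the linear intensity scale used throughout. In sorted bulk samples, fewer cells of a type and less RNA per cell cannot be told apart.

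The ganglion cell genes showed no called difference between fractions and larger differences between replicate numbers. None of the 10 was called between the EGFP-positive and the EGFP-negative fraction by limma, against 0.963% of all features called either way. None reached an unadjusted p under 0.05 in this fit, which has no term for the replicate number, against 19.2% of all features. Genes chosen for varying between replicates carry a large error in such a fit, so this shortfall follows in part from the choice. Their median replicate SD was 0.60, against 0.11 over all features. With the replicate number as a block, 3 of the 10 had an unadjusted p under 0.05 by limma, as did 27.1% of all features. The median log2 difference of the 10 genes between fractions was 0.0044, and 5 of 10 were above 0. Within the fractions, 8 of the 10 genes read higher on the replicate 2 array than on the replicate 1 array of both, with a median log2 difference over the 10 genes of 0.64 in EGFP-positive cells and 1.04 in EGFP-negative cells, against 0.02 and -0.04 over all features. For these 8 genes both replicate 2 arrays lay above both replicate 1 arrays, an arrangement held by 15.7% of all features. Pou4f3 and Thy1 were the exceptions.

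**Figure D1:**
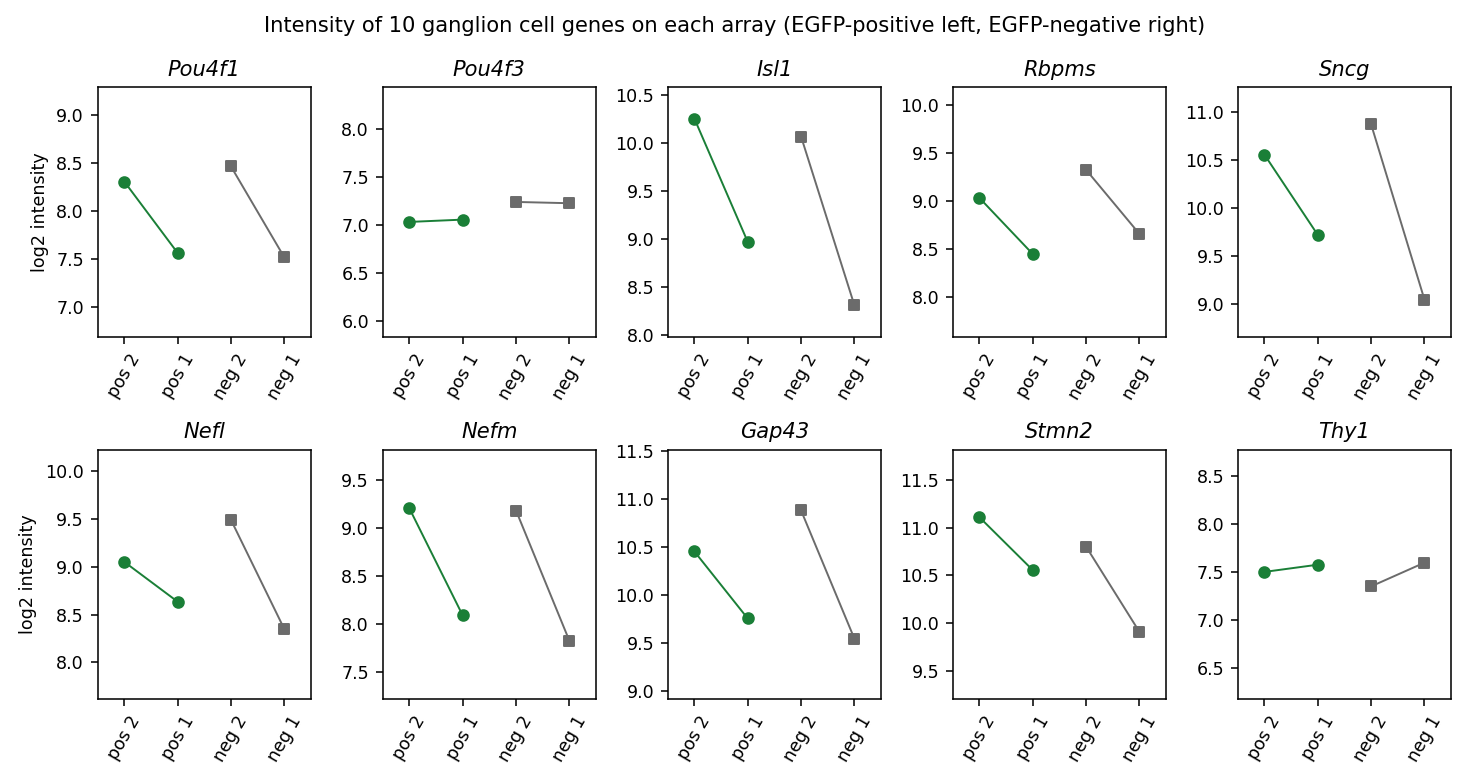
Log2 intensity of the 10 ganglion cell genes on each array, with EGFP-positive replicates 2 and 1 (green circles) left of EGFP-negative replicates 2 and 1 (grey squares). Each panel spans the same height on the log2 scale, lines join the 2 arrays of a fraction, and in 8 panels both replicate 2 points lie above both replicate 1 points.

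Isl1, a LIM-homeodomain factor that acts with the POU4 factors in ganglion cell differentiation, varied most between replicates among the transcription factors. Its intensity was 1224.1 and 502.3 on EGFP-positive replicates 2 and 1, against 1075.6 and 317.7 on EGFP-negative replicates 2 and 1. The replicate 2 arrays were the high ones in both fractions, and the fractions overlapped. Replicate 2 exceeded replicate 1 by 1.29 on the log2 scale in EGFP-positive cells and by 1.76 in EGFP-negative cells, or 2.44-fold and 3.39-fold. Mean log2 intensity was 9.61 ± 0.91 in EGFP-positive and 9.19 ± 1.24 in EGFP-negative cells (SD, n = 2 each), a difference of 0.42 ± 0.68 (SE, limma adjusted p = 0.834) with a 95% interval from -1.29 to 2.14.

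Pou4f1, which encodes the POU-domain factor BRN3A of ganglion cells and sensory neurons, showed the same arrangement at a smaller size. It read 316.7 and 189.1 on EGFP-positive replicates 2 and 1, against 353.4 and 183.2 on EGFP-negative replicates 2 and 1. Both replicate 1 arrays read nearly alike, and both replicate 2 arrays stood above them. The replicate 1 readings were below the array medians, where a feature may carry little specific signal. The replicate difference was 0.74 on the log2 scale in EGFP-positive and 0.95 in EGFP-negative cells. Between fractions Pou4f1 differed by -0.06 ± 0.38 (limma adjusted p = 0.972).

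Pou4f3, the gene of the related factor BRN3C that a subset of ganglion cells and inner ear hair cells make, differed little with the replicate number. It had intensities of 130.6 and 132.8 on EGFP-positive replicates 2 and 1, against 150.9 and 149.5 on EGFP-negative replicates 2 and 1. All 4 readings were below the array medians, where a feature may carry little specific signal. The fractions did not overlap, as in 47.6% of all features, and the difference of -0.19 ± 0.10 was not called (limma adjusted p = 0.382). No other gene of the 10 separated the fractions.

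Rbpms, whose RNA-binding product marks nearly all ganglion cell types, read 522.6 and 348.3 on EGFP-positive replicates 2 and 1, against 640.3 and 402.9 on EGFP-negative replicates 2 and 1. Within each replicate number the EGFP-positive array was the lower one, by 0.29 on the log2 scale for number 2 and by 0.21 for number 1. The replicate differences of 0.59 in EGFP-positive and 0.67 in EGFP-negative cells were larger than that, and the fractions differed by -0.25 ± 0.29 (limma adjusted p = 0.750).

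Sncg encodes gamma-synuclein, a small cytoplasmic protein abundant in ganglion cells. Its intensity was 1505.4 and 842.8 on EGFP-positive replicates 2 and 1, against 1874.4 and 528.3 on EGFP-negative replicates 2 and 1, so that the EGFP-negative arrays held both the highest and the lowest reading. The replicate difference was 0.84 on the log2 scale in EGFP-positive and 1.83 in EGFP-negative cells, and the difference in EGFP-negative cells, 3.55-fold, was the largest of the 10 genes in either fraction. The difference between fractions was 0.18 ± 0.63 (limma adjusted p = 0.941).

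Nefl and Nefm, neighbouring genes on chromosome 14, encode the light and medium subunits of neurofilaments, the intermediate filaments of axons. Nefm read 590.7 and 272.4 on EGFP-positive replicates 2 and 1, against 581.4 and 226.9 on EGFP-negative replicates 2 and 1. Its replicate 2 arrays were nearly level between the fractions, while for number 1 the EGFP-positive array was higher by 0.26 on the log2 scale. The replicate difference was 1.12 on the log2 scale in EGFP-positive and 1.36 in EGFP-negative cells, and only Nefm and Isl1 among the 10 genes reached 2-fold in both, a size that 0.138% of all features reached. Nefl read 529.5 and 397.1 on EGFP-positive replicates 2 and 1, against 717.2 and 325.8 on EGFP-negative replicates 2 and 1. Here the replicate difference was 0.42 in EGFP-positive and 1.14 in EGFP-negative cells. The replicate differences of the 2 subunit genes thus lay closer together in EGFP-negative than in EGFP-positive cells. Between fractions Nefm differed by 0.14 ± 0.55 (limma adjusted p = 0.947) and Nefl by -0.08 ± 0.39 (limma adjusted p = 0.963).

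Gap43, a membrane-bound growth cone protein that is made while axons extend, read 1401.5 and 863.4 on EGFP-positive replicates 2 and 1, against 1885.7 and 746.3 on EGFP-negative replicates 2 and 1. As with Sncg, the EGFP-negative arrays held both extremes. The replicate difference was 0.70 on the log2 scale in EGFP-positive and 1.34 in EGFP-negative cells, and the fractions differed by -0.11 ± 0.47 (limma adjusted p = 0.956).

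Stmn2 encodes stathmin-2, which regulates microtubules in growth cones of many neurons. It read 2206.6 and 1505.8 on EGFP-positive replicates 2 and 1, against 1784.4 and 963.7 on EGFP-negative replicates 2 and 1. The EGFP-positive array was the higher one for each replicate number, by 0.31 on the log2 scale for number 2 and 0.64 for number 1, yet EGFP-positive replicate 1 read below EGFP-negative replicate 2. With a replicate difference of 0.55 in EGFP-positive and 0.89 in EGFP-negative cells, the difference between fractions of 0.48 ± 0.34 was not called (limma adjusted p = 0.553). It was the largest difference between fractions among the 10 genes.

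Thy1, a surface glycoprotein of ganglion cells and T cells, went with Pou4f3 rather than with the other genes. It had intensities of 181.2 and 190.9 on EGFP-positive replicates 2 and 1, against 163.2 and 193.7 on EGFP-negative replicates 2 and 1, all below the array medians. Replicate 2 was the lower array in both fractions, by a log2 difference of -0.08 in EGFP-positive and -0.25 in EGFP-negative cells. The fractions differed by 0.06 ± 0.12 (limma adjusted p = 0.869).

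The replicate differences of these genes can be set beside those of all features. At 1.5-fold or more in both, 6 of the 10 genes qualified, against 0.731% of all features, and at any size 8 of 10, against 29.0%. In EGFP-negative cells 5 of the 10 exceeded 2-fold (Isl1, Sncg, Nefm, Gap43 and Nefl), where 0.37% of all features did, and in EGFP-positive cells 2 did, where 0.548% of all features did. Taken with its sign, the difference was higher in EGFP-negative than in EGFP-positive cells for 9 of 10 genes, all but Thy1. The same held for 41.1% of all features. Ranked over 18920 genes by the smaller of its 2 replicate differences, Isl1 stood at 3, Nefm at 8, Sncg at 24, Pou4f1 at 38, Gap43 at 49, Rbpms at 82, Stmn2 at 101, Nefl at 222, Pou4f3 at 6306 and Thy1 at 14965. Since the choice of genes followed from this very contrast, the ranks only show its size.

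**Figure D2:**
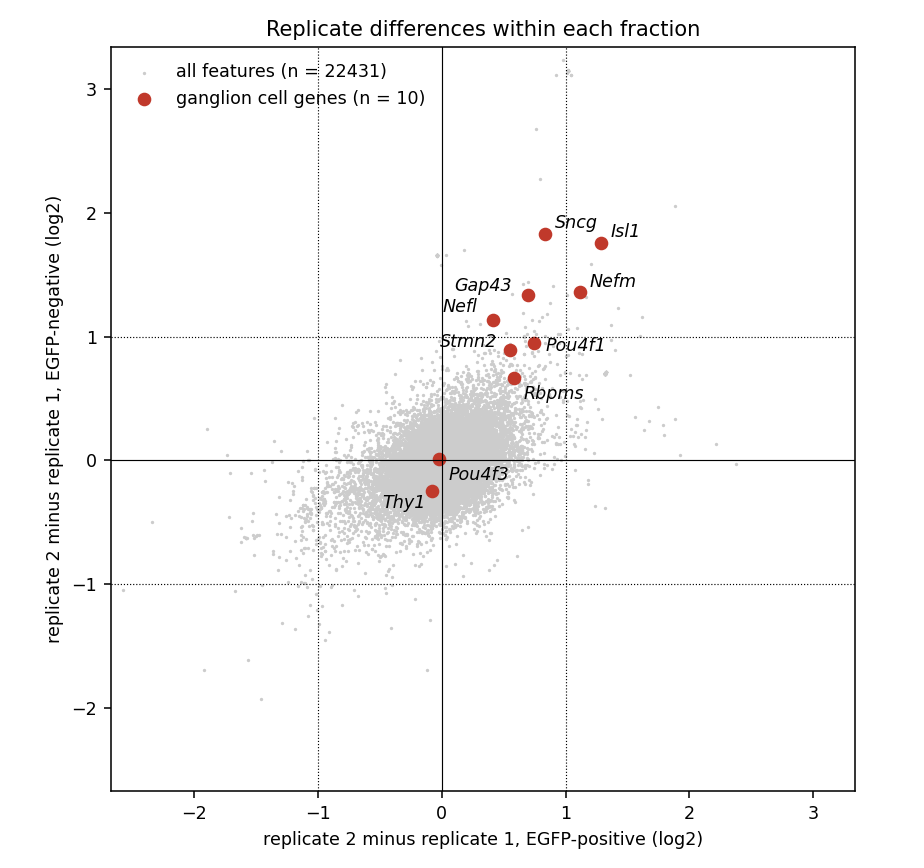
Replicate 2 minus replicate 1 (log2) in EGFP-positive cells (horizontal axis) and EGFP-negative cells (vertical axis) for all 22431 features (grey) and the 10 ganglion cell genes (red), with dotted lines at 2-fold. Isl1 and Nefm lie past 2-fold in both fractions, and Pou4f3 and Thy1 lie near the origin.

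The difference between fractions varied with the arrays that were set against each other. Within replicate number 2 the median log2 difference of the 10 genes, EGFP-positive minus EGFP-negative, was -0.18, with 4 of 10 above 0. Within replicate number 1 it was 0.24, with 7 of 10 above 0. Pou4f1, Sncg, Nefl and Gap43 were lower in EGFP-positive cells within number 2 and higher within number 1, a pair of signs shown by 10.1% of all features. The change from number 1 to number 2 equals the replicate difference in EGFP-positive cells less that in EGFP-negative cells. It therefore restates the replicate differences above and is no separate result on the fractions. For Sncg the log2 difference was -0.32 within number 2 and 0.67 within number 1, for Nefl -0.44 within number 2 and 0.29 within number 1, and for Gap43 -0.43 within number 2 and 0.21 within number 1. Isl1, Nefm and Stmn2 were higher in EGFP-positive cells within both numbers, and Rbpms and Pou4f3 were lower within both. In 9 of the 10 genes, all but Pou4f3, both replicate differences exceeded the difference between fractions in size. That count follows in part from the choice of genes, and the share of all features was not counted. For Thy1 the margin was small, with -0.08 between EGFP-positive replicates against 0.06 between fractions.

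Leaving out single arrays moved the differences between fractions too. In each such fit 1 fraction is a lone array, assumed to vary like the 2 arrays of the other, so the values are given with no reading of their tests. The median over the 10 genes was 0.28 without EGFP-positive replicate 1, -0.26 without EGFP-positive replicate 2, -0.53 without EGFP-negative replicate 1 and 0.53 without EGFP-negative replicate 2. Sncg ranged from -0.73 without EGFP-negative replicate 1 to 1.09 without EGFP-negative replicate 2, and Isl1 from -0.46 to 1.30 over the same fits. Pou4f3 stayed between -0.20 and -0.18 and Stmn2 between 0.03 and 0.92 in the 4 fits, the only genes of the 10 whose sign held throughout.

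**Figure D3:**
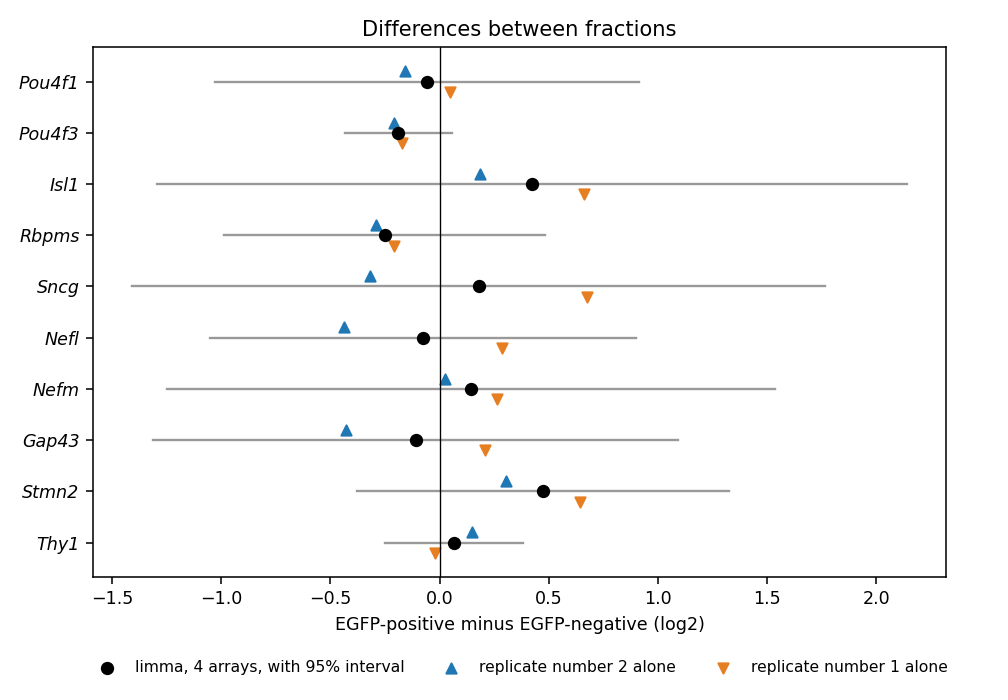
Log2 difference of EGFP-positive minus EGFP-negative cells for each of the 10 genes, from limma on all 4 arrays with its 95% interval (black circle and line), and from the arrays of replicate number 2 (blue triangle) and number 1 (orange triangle) alone. Every interval spans 0, and the triangles fall on opposite sides of 0 for Pou4f1, Sncg, Nefl, Gap43 and Thy1.

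Paralogs of the 10 genes were divided. Of 11 listed, 9 were analysed here, with a median replicate difference of 0.42 in EGFP-positive and 0.60 in EGFP-negative cells. On replicate 2 of both fractions 6 of 9 were higher, against 29.0% of all features. Ina, which encodes the neurofilament-associated subunit alpha-internexin, came closest to Nefm. It read 3107.1 and 1621.1 on EGFP-positive replicates 2 and 1, against 1644.1 and 810.1 on EGFP-negative replicates 2 and 1. Its replicate difference was 0.94 on the log2 scale in EGFP-positive and 1.02 in EGFP-negative cells, while the EGFP-positive array was the higher one within each number. The heavy subunit gene Nefh differed by only 0.23 between EGFP-positive and 0.16 between EGFP-negative replicates, and the peripheral neuron subunit gene Prph by -0.09 in EGFP-positive and 0.03 in EGFP-negative cells.

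Isl2, the LIM-homeodomain relative of Isl1, read 680.3 and 381.9 on EGFP-positive replicates 2 and 1, against 279.8 and 177.7 on EGFP-negative replicates 2 and 1. Here the fractions did not overlap, with a log2 difference of 1.19 ± 0.34 that was not called (limma adjusted p = 0.156), and the replicate difference was 0.83 in EGFP-positive and 0.65 in EGFP-negative cells. Rbpms2 followed Rbpms, with replicate differences of 0.61 in EGFP-positive and 0.77 in EGFP-negative cells. Among the stathmins, Stmn3 (0.42 EGFP-positive, 0.60 EGFP-negative) and Stmn4 (0.42 EGFP-positive, 0.69 EGFP-negative) resembled Stmn2, whereas Stmn1, which dividing cells also make, had the opposite sign (-0.14 EGFP-positive, -0.19 EGFP-negative). Beta-synuclein, encoded by Sncb, did not follow Sncg (-0.19 EGFP-positive, -0.07 EGFP-negative). None of the 9 paralogs was called between fractions by limma, and 2, Isl2 and Nefh, had an unadjusted p under 0.05, both higher in EGFP-positive cells, as in 9.34% of all features.

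Further genes of ganglion cells varied with the replicate number in the same direction. In a list of 24 such genes that holds none of the 10, 22 were analysed here, of which 5 are paralogs already described (Isl2, Rbpms2, Nefh, Ina and Prph), so that the lists are not separate evidence. The 22 genes had medians of 0.48 in EGFP-positive and 0.60 in EGFP-negative cells. Of them, 18 were higher on replicate 2 in both fractions, against 29.0% of all features. At least 1.5-fold was reached by 10 (0.731% of all features) and at least 2-fold by 4 (0.138%). The 4 were Cntn2, Ebf1, Ebf3 and Slc17a6. Cntn2, an axonal adhesion molecule also known as TAG-1, read 1145.0 and 309.5 on EGFP-positive replicates 2 and 1, against 1360.6 and 327.3 on EGFP-negative replicates 2 and 1. Ebf1 and Ebf3, transcription factors of postmitotic neurons, differed between replicates by 1.21 and 1.43 in EGFP-positive cells and by 1.58 and 1.23 in EGFP-negative cells. Slc17a6, the vesicular glutamate transporter gene of ganglion cells, had 1.62 in EGFP-positive and 1.16 in EGFP-negative cells. Atoh7, the helix-loop-helix gene required for ganglion cell fate and named here after its values were seen, had 0.69 in EGFP-positive and 1.02 in EGFP-negative cells. At the other end stood Prph, Irx4 (0.19 EGFP-positive, -0.09 EGFP-negative), Satb1 (0.14 EGFP-positive, 0.03 EGFP-negative) and Chrna6 (0.52 EGFP-positive, -0.19 EGFP-negative). None of the 22 was called between fractions by limma, 4 (Isl2 and Nefh among them) had an unadjusted p under 0.05 and were higher in EGFP-positive cells, as in 9.34% of all features, and the median difference was 0.26 against -0.01 over all features.

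Genes of axon growth and guidance showed the pattern in part. Of 24 listed genes 23 were analysed here, among them Cntn2 of the list above and the paralogs Stmn1, Stmn3 and Stmn4. On replicate 2 of both fractions 16 were higher (29.0% of all features), 3 of them by at least 1.5-fold (0.731%). Medians over the 23 genes were 0.39 in EGFP-positive and 0.43 in EGFP-negative cells. After Cntn2, the microtubule protein gene Dcx of migrating and young neurons led (1.37 EGFP-positive, 1.09 EGFP-negative), followed by the netrin receptor gene Dcc (1.02 EGFP-positive, 0.85 EGFP-negative) and Dpysl3, which encodes a growth cone protein of the CRMP family (0.48 EGFP-positive, 0.71 EGFP-negative). The neural adhesion molecule genes Ncam1 (-0.15 EGFP-positive, -0.35 EGFP-negative) and Nrcam (-0.26 EGFP-positive, -0.05 EGFP-negative) had the opposite sign, as did the netrin receptor gene Unc5c (-0.40 EGFP-positive, -0.01 EGFP-negative) and Stmn1. None of the 23 was called between fractions by limma, and 7 had an unadjusted p under 0.05, all higher in EGFP-positive cells, as in 9.34% of all features.

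Over all genes, those with the largest shared replicate differences included several of the genes just named. Ranked by the smaller of the 2 differences, the 10 leading genes were Cntn2, the nicotinic receptor subunit gene Chrna3 (1.34 in EGFP-positive and 1.48 in EGFP-negative cells), Isl1, Ebf3, the neuronal RNA-binding gene Elavl4 (1.22 EGFP-positive, 1.45 EGFP-negative), Ebf1, Slc17a6, Nefm, Dcx and the growth factor binding gene Igfbp5 (1.10 EGFP-positive, 1.07 EGFP-negative). The 10 genes lowest on replicate 2 in both fractions held 3 zinc finger or nuclear receptor genes of the immediate early response, Egr1 (-1.46 EGFP-positive, -1.93 EGFP-negative), Nr4a1 (-1.29 EGFP-positive, -1.31 EGFP-negative) and Egr2 (-1.19 EGFP-positive, -1.37 EGFP-negative). The others were 4922502B01Rik (-1.92 EGFP-positive, -1.70 EGFP-negative), the nuclear factor gene Nfix (-1.57 EGFP-positive, -1.61 EGFP-negative), the adhesion molecule gene Mcam (-1.08 EGFP-positive, -1.26 EGFP-negative), the receptor tyrosine kinase feedback inhibitor gene Spry2 (-1.06 EGFP-positive, -1.17 EGFP-negative), the LIM-homeobox gene Lhx9 (-1.67 EGFP-positive, -1.05 EGFP-negative), the chemokine receptor gene Cxcr4 (-2.57 EGFP-positive, -1.05 EGFP-negative) and the carbonic anhydrase gene Car2 (-1.16 EGFP-positive, -1.02 EGFP-negative). In all, 31 features were at least 2-fold higher and 14 at least 2-fold lower on replicate 2 of both fractions, 18 and 1 of them without a single gene symbol.

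**Figure D4:**
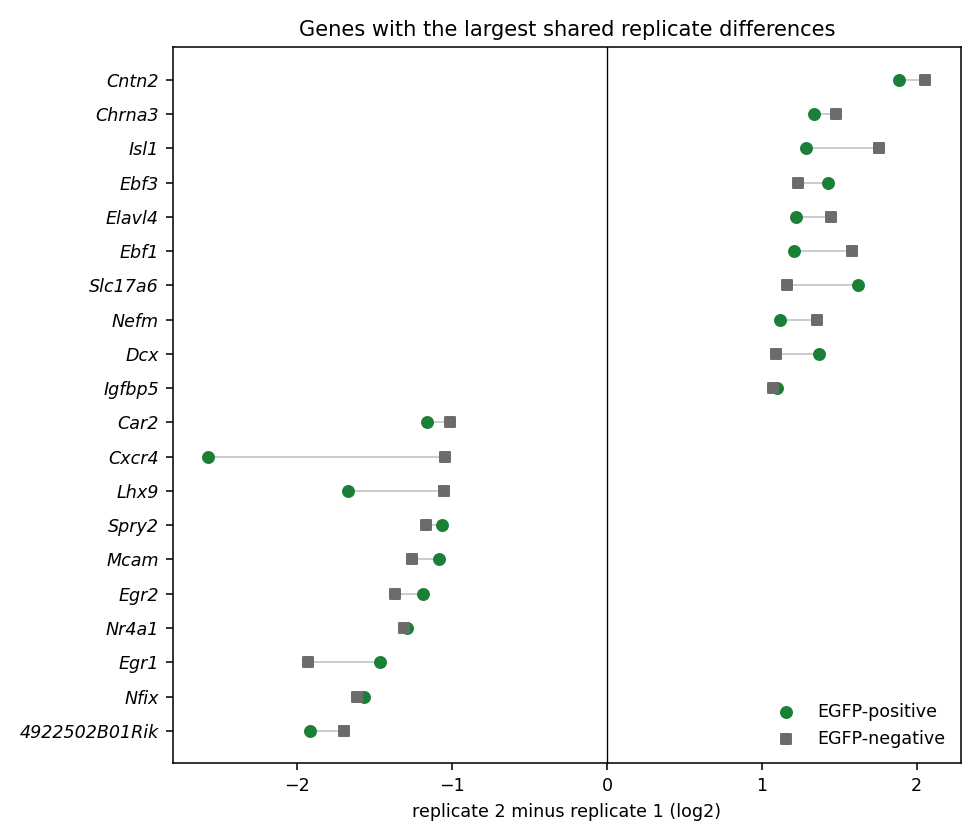
Replicate 2 minus replicate 1 (log2) in EGFP-positive cells (green circles) and EGFP-negative cells (grey squares) for the 10 genes with the highest and the 10 with the lowest difference shared by both fractions. The difference of smaller size is 1.07 for Igfbp5, the least of the upper 10, and -1.02 for Car2, the least of the lower 10.

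The genes closest to the mean pattern of the 10 were found by the root mean square distance between log2 profiles over the 4 arrays, each profile centred on its own mean. The closest outside the set was the insulin-like growth factor binding protein-like gene Igfbpl1, at a distance of 0.055. It read 478.0 and 285.0 on EGFP-positive replicates 2 and 1, against 516.8 and 251.0 on EGFP-negative replicates 2 and 1. Next came Ifitm2 (0.069), Hfm1 (0.073), the muscarinic receptor gene Chrm3 (0.080), the homeobox gene Dlx1 (0.082), Edil3 (0.085), Wfdc6a (0.098) and the sodium channel gene Scn9a (0.100). Within the set, Pou4f1 was nearest to the mean pattern (0.075) and Thy1 farthest from it (0.494). With 4 arrays many genes can share such a profile.

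Other gene groups differed with the replicate number as well, most of them the other way. Of 24 cell cycle genes analysed, 23 were lower on replicate 2 of both fractions, as were 32.4% of all features, with medians of -0.86 in EGFP-positive and -0.39 in EGFP-negative cells. By the mean of the 2 replicate differences the lowest were the spindle checkpoint gene Bub1b (-1.31 EGFP-positive, -0.78 EGFP-negative) and the mitotic kinase gene Cdk1 (-0.97 EGFP-positive, -0.75 EGFP-negative). The summed intensity of these 24 genes was 16361 and 30784 on EGFP-positive replicates 2 and 1, against 42240 and 53084 on EGFP-negative replicates 2 and 1. Of 16 progenitor genes 12 were lower on replicate 2 of both fractions, with medians of -0.62 in EGFP-positive and -0.14 in EGFP-negative cells and sums of 22843 and 30755 in EGFP-positive against 42200 and 42870 in EGFP-negative replicates 2 and 1. Hes1 (-1.13 EGFP-positive, -0.53 EGFP-negative), a Notch target, stood at one end of that list, and the Wnt-binding gene Sfrp2 (0.67 EGFP-positive, 1.08 EGFP-negative) at the other. For comparison, the summed intensity of the 10 ganglion cell genes was 8609 and 5245 on EGFP-positive replicates 2 and 1, against 9227 and 4038 on EGFP-negative replicates 2 and 1.

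Genes that tissue dissociation is known to induce were also lower on the replicate 2 arrays. Of 14 analysed, 11 were lower in both fractions, against 32.4% of all features. Of these genes 5 were lower by at least 1.5-fold, against 0.557% of all features, and Egr1 and Nr4a1 by at least 2-fold, against 0.0624%. Their medians were -0.45 in EGFP-positive and -0.44 in EGFP-negative cells. The sums were 7678 and 11103 on EGFP-positive replicates 2 and 1, against 8446 and 12624 on EGFP-negative replicates 2 and 1. Glial and astrocyte genes were lower on replicate 2 of both fractions in 9 of 11 cases, against 32.4% of all features. The lowest means of the 2 differences were in the retinaldehyde-binding gene Rlbp1 (-0.99 EGFP-positive, -1.32 EGFP-negative) and Pdgfra (-1.10 EGFP-positive, -0.92 EGFP-negative). Sums over the list were 6678 and 9156 in EGFP-positive against 10344 and 11669 in EGFP-negative replicates 2 and 1. Of the 11 genes, 4 read below the array median on every array, Gfap, Aqp4 and S100b among them. The part of cell cycle, progenitor, glial and dissociation genes in the replicate differences of the ganglion cell genes was not tested.

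Other neuronal and non-neural lists mostly had smaller medians. Medians of the 14 amacrine genes were 0.05 in EGFP-positive and -0.05 in EGFP-negative cells, and of the 8 horizontal cell genes 0.20 in EGFP-positive and 0.01 in EGFP-negative cells, where Onecut2 (1.67 EGFP-positive, 0.32 EGFP-negative) and Onecut1 (1.14 EGFP-positive, 0.66 EGFP-negative), factors that ganglion cells also make, had the largest values. Of the 14 amacrine genes Meis2 (-0.10 EGFP-positive, -1.29 EGFP-negative) had the largest mean difference in size, followed by Barhl2 (0.34 EGFP-positive, 0.43 EGFP-negative). Photoreceptor precursor genes had medians of 0.56 in EGFP-positive and 0.08 in EGFP-negative cells, with the cone receptor gene Thrb (1.79 EGFP-positive, 0.20 EGFP-negative) and the cone channel gene Cngb3 (1.27 EGFP-positive, 0.41 EGFP-negative) ahead. Among the 12 bipolar genes, which include Isl1, Lhx4 (1.10 EGFP-positive, 0.19 EGFP-negative) came after it. Endothelial, microglial, erythroid, pigment epithelium and lens lists had medians between -0.13 and 0.12 in both fractions, although the VEGF receptor gene Kdr, which retinal progenitors also make, stood apart (-1.52 EGFP-positive, -0.76 EGFP-negative). Of the 11 microglial genes 10 read below the array median on every array, among them Aif1, Csf1r and Tyrobp, while Trem2 read slightly above it on all 4, at 241.6 and 230.1 on EGFP-positive replicates 2 and 1, against 243.6 and 227.7 on EGFP-negative replicates 2 and 1. All 10 pigment epithelium genes, Tyr and Rpe65 included, read below it on every array. Among these lists, 13 of the 15 photoreceptor precursor genes, all but Thrb and Rxrg, were called between fractions, each higher in EGFP-positive cells. Tfap2a, Tfap2b and Neurod4 were also called higher in EGFP-positive cells. Of the progenitor genes, Fabp7 was called higher and Sox2 lower in EGFP-positive cells. No other listed gene was called.

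**Figure D5:**
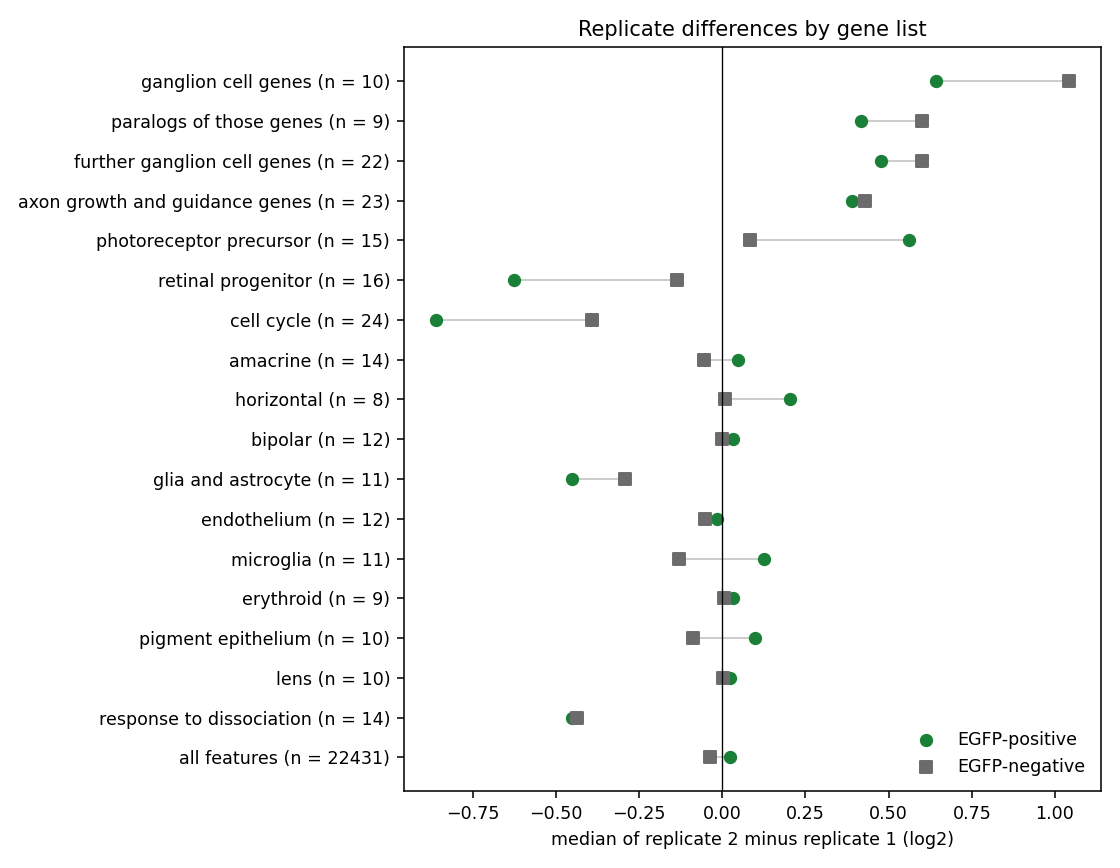
Median of replicate 2 minus replicate 1 (log2) over each gene list in EGFP-positive cells (green circles) and EGFP-negative cells (grey squares), with the number of genes analysed. The ganglion cell, paralog, axon, photoreceptor precursor and horizontal cell lists lie right of 0 in both fractions, photoreceptor precursors at 0.56 in EGFP-positive and 0.08 in EGFP-negative cells, and the cell cycle, glial, dissociation and progenitor lists and, by little, the endothelial list lie left of 0 in both. The bipolar, erythroid and lens medians lie near 0, with signs that flip under other scalings.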

How the data were processed

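RNA of 2 EGFP-positive and 2 EGFP-negative samples (100 ng each, per the labels' protocols) was measured on Affymetrix whole-transcript arrays, 1 array per sample. The deposited table holds 1 normalised intensity per feature and array. Its linear scale was inferred from the range, 18.9 to 36625.2, and log2 was then taken with no pseudocount. RMA, which corrects background, normalises and summarises probes, and the build mm8 are listed in the submitters' processing notes, with no role or version. The number of arrays limits the precision. No column was left unused.

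Of 22431 features, 20176 had 1 gene symbol in the platform annotation, 412 several and 1843 none. A gene with more than 1 feature (726 of 18920 genes) was read from its feature of highest mean. The symbols of the 10 genes matched a RefSeq table of GRCm38.p6 by Entrez number. That assembly is not mm8, and its promoter windows were used for sequence alone.

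Fractions were compared over all features by limma 3.58.1 (R 4.3.3; lmFit, then eBayes with no trend), as EGFP-positive minus EGFP-negative, two-sided, with Benjamini-Hochberg adjustment and a threshold of 0.05. Errors are moderated standard errors, and 95% intervals use 5.26 degrees of freedom. Replicate differences are replicate 2 minus replicate 1 within a fraction, 1 array each, with no test. The fit was tested on simulated data with independent noise on each array. That test does not cover replicate differences shared by the 2 fractions, as seen here. Alternatives were the replicate number as a block, each array left out, a variance trend, 2 other scalings, a filter on dim features and gene means.

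The members and gene lists were chosen with earlier results of these data known. Genes named were the 10 members, all analysed paralogs, the 4 genes at either end of the further ganglion cell and axon lists by mean replicate difference, the 2 largest by size in each other list (not printed for the microglial, erythroid, pigment and lens lists, nor for a second endothelial gene), the 10 genes at either end over all genes, the 8 with the closest profile, and list genes called between fractions. List genes without a feature of their own symbol, among them Pou4f2, were not analysed here. The microglial (Trem2 included) and pigment cell markers were named outside this rule.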

Additional observations from a re-analysis of the deposited data

How the results depend on the processing

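None of the 10 ganglion cell genes was called between the fractions by limma under any alternative that kept all 4 arrays. In those fits the limma adjusted p ran from 0.056 (Stmn2, replicate block) to 0.988 (Pou4f1, quantile normalisation). The 4 fits with an array left out take the spread from 1 fraction alone and say nothing about stability. Counts over all features moved more. Of 184 features called higher and 32 called lower with all arrays, 0 to 667 were called higher and 0 to 762 lower with 1 array left out, the zeros coming without either EGFP-negative array, where 2346 and 3134 features had an unadjusted p under 0.05. With the replicate block, 1377 were called higher and 1500 lower, and Isl1, Rbpms and Stmn2 had an unadjusted p under 0.05, as did 27.1% of all features, with adjusted p of 0.111 for Isl1 and 0.166 for Rbpms. The labels do not say what a shared replicate number stands for, and 2 pairs do not settle whether it pairs the samples. The differences between replicates 2 and 1 in the 2 fractions correlated at 0.48 over features, which are not independent. The count of lower calls was 21 with a variance trend and 51 with gene means. Other scalings, filters and models kept both counts within 1.5 times. The number of ganglion cell genes higher on replicate 2 of both fractions was 2 at 2-fold, 6 at 1.5-fold and 8 at any size, and stayed at 2 under median centring, quantile normalisation and gene means. Median centring and quantile normalisation moved no sign among the 10 genes. Applied to the lists after the values were seen, they left the sign of every list median in place except for the bipolar, erythroid and lens lists, whose medians were within 0.04 of 0. No replicate difference printed for a named gene changed its sign under either scaling.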
